A study of Mus musculus with 3 samples.

Results

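The mouse carries large tandem families of placental hormone and adhesion genes, and the rows named for 2 of them were examined in RNA of the dentate gyrus, the hippocampal field built mainly of granule neurons. The members were chosen by name and chromosome: rows on chromosome 13 whose symbol is Prl followed by a digit, and rows on chromosome 7 whose symbol is Psg or Ceacam followed by a digit. These are 54 of the 24458 rows of the deposited table, with 26 Prl rows, 13 Psg rows and 15 Ceacam rows. The study examined chromatin opening and transcripts of this tissue after its neurons were activated. The 3 libraries used here, replicates 1, 2 and 3 of the group labelled E24, were made from microdissected tissue of individual C57BL/6 mice aged 8 weeks. The name of the deposited table adds WT and ECT for all of them. The labels spell out neither these letters nor E24 and name no treatment agent, and 1 group allows no comparison between conditions.

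Prolactin is a pituitary hormone that acts through a cytokine-type receptor and the kinase JAK2 on STAT5 transcription factors. In rodents its gene was duplicated many times, and most of the copies are transcribed in trophoblast and decidua of the placenta, where the placental lactogens use the prolactin receptor and other members act on blood vessels. The pregnancy-specific glycoproteins (Psg) are immunoglobulin-type proteins secreted in large amounts by trophoblast. They belong to one family with the Ceacam adhesion proteins, some of which are placental in the mouse while others, such as Ceacam1, serve epithelium, endothelium and leukocytes.

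The levels are in RPKM, which corrects a read number for gene length and library size, and they do not stand at the same row in every library. Values that match between libraries often lie some rows apart along the table, so each value is given as that of a row and the stretch of rows is the unit that can be read with more confidence. Of 12 rows for trophoblast markers, 1 lay above 1 RPKM by the test described below, 7 lay below and 4 neither, against 19.7% above and 30.4% below among all rows. Those for Tpbpa, Tpbpb and Hand1 were listed at 0 in all libraries, and the one above, Syna, held 3.997, 3.81 and 5.30 RPKM in replicates 1, 2 and 3. Eomes, with 3.24, 3.13 and 3.46 RPKM, and Tfap2c, with 1.59, 1.38 and 1.54 RPKM, held 1 RPKM or more in every library but were not called. The summed level of the 12 was 9.58, 9.05 and 41.4 RPKM. Most of the sum in replicate 3 came from Gcm1, which held 0.0164, 0 and 25.5 RPKM. Of the 6 rows for granule neuron markers, Calb1 lay above 1 RPKM, C1ql2 below it and 4 neither. Their sum was 109.8, 190.5 and 750.4 RPKM, most of it in replicate 3 from Snap25, which held 8.70, 8.09 and 611.6 RPKM. The others differed widely between libraries, with Prox1 at 1.58, 39.3 and 0 RPKM, Dsp at 0.325, 40.1 and 38.9 RPKM and Rbfox3 at 91.3, 11.2 and 9.65 RPKM. The part of either cell type in the member values was not tested.

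Member rows were low. Of the 54 rows, 30 (55.56%) were listed at 0 in all 3 libraries, against 18.8% of all rows. A level of 1 RPKM or more in all 3 was held by 3 members (5.556%), against 32.35% of all rows. Another 18 members held it in 1 or 2 libraries only. These were 16 rows in 1 library (29.63%, against 17.35% of all rows) and 2 rows in 2 (3.704%, against 17.28%). In each library 14.8%, 20.4% and 18.5% of the members were at 1 RPKM or more, a mean of 17.9% ± 2.83 (SD, n = 3), against 49.7% ± 0.437 of all rows. The median member was at 0 RPKM in every library, against 1.02, 0.911 and 0.930 RPKM for all rows. In bulk tissue fewer cells of a type and less RNA per cell cannot be told apart.

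Each row was tested against a level of 1 RPKM with limma on log2(RPKM + 1), two-sided. Benjamini-Hochberg adjustment ran over all 24458 rows, with a threshold of 0.05. The test takes the values at a row as replicates of 1 gene. Because matching values often lie at different rows, the spread at a row may mix values of different genes. The p values and calls, over all rows too, carry this limit and do not measure spread between animals alone. No Prl row lay above 1 RPKM (0 of 26 by limma after adjustment, and 1 of 26 before it), and 1 of 28 Psg and Ceacam rows did. Of all rows, 19.7% lay above. Below 1 RPKM lay 19 of 26 Prl rows (73.1%) and 13 of 28 Psg and Ceacam rows (46.4%), beside 30.4% of all rows. All 19 Prl calls and 11 of the 13 others were rows listed at 0 throughout, which have no spread between libraries. The other 2 were Ceacam16, whose protein is part of the tectorial membrane of the inner ear, with 0, 0 and 0.162 RPKM, and Ceacam18, with 0, 0.0870 and 0 RPKM.

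In the order of the table the members fell into 8 blocks, where a block allows at most 10 other rows between neighbouring members. Only 2 blocks are long enough to have an interior once 5 rows are set aside at each edge. Interior, edge and the rows beyond an edge are places in table order, and the mm9 spans given are those of the members alone. The larger Prl block runs from Prl3d1 to Prl5a1 on chromosome 13, from 27186057 to 28243464 in the mm9 build, over 25 rows of which 22 are members. The Psg block runs from Ceacam3 to Psg23 on chromosome 7, from 17659388 to 19406940 in mm9, over 29 rows of which 19 are members. The other 6 blocks hold 1 to 4 members each.

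The Prl block contained the longest silent stretch among the members. From Prl8a6 to Prl5a1, 14 consecutive rows, all of them members, were listed at 0 in every library. They include the rows for Prl7d1, known as proliferin-related protein and an inhibitor of vessel growth, and for the prolactin-like proteins Prl7a1 and Prl4a1. Within single libraries the run was longer, with 21 rows in replicate 1 and 20 in replicate 3, against 14 in replicate 2. Over the table, 42 of 1934 runs of rows at 0 in all libraries were at least as long, and the longest had 129 rows. The row of Prl3b1, placental lactogen II, was also listed at 0 in all 3 libraries, as were those of Prl3d3, Prl3c1 and Prl6a1. In all, 18 of the 22 members of the block were at 0 in every library, against 18.8% of all rows.

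The remaining 4 members of the Prl block each held a value in 1 library. The row of Prl3d1, placental lactogen I, held 3.09, 0 and 0 RPKM, and its neighbour Prl3d2, another placental lactogen I gene, held 17.3, 0 and 0 RPKM. The row of Prl3a1 held 0, 3.92 and 0 RPKM, and that of Prl8a2, known as decidual prolactin-related protein, held 0, 19.95 and 0 RPKM. At each of these rows a single library held a value. In replicate 3 the values inside the block stood at rows that are not members, 4932702P03Rik with 3.52 RPKM and 9330162012Rik with 19.8 RPKM. In mm9 these rows start at 24997468 and 25029269, before the span of the members, so they lie inside the block in table order only.

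Each library thus held a like pattern in the Prl block, a value of 3 to 4 RPKM followed in the next row by one of 17 to 20 RPKM, at 3 different places. Taking replicate 1 at Prl3d1 and Prl3d2 as the start, the replicate 3 values lay 3 rows further on and the replicate 2 values 6 rows beyond those. Neighbouring values found again in the same order, the larger at most 25% above the smaller, were counted over the table. Of 43392 searches for 2 neighbouring values of 1 RPKM or more in another library, 21.3% succeeded at the same rows and 15.9% only at other rows up to 10 away. Searches 26 to 46 rows away, equally many places, succeeded in 6.54%. Inside the Prl block 4 of 6 searches succeeded at other rows and 0 at the same rows. Libraries were searched in both directions, so a match can count once each way. The 4 were matches of replicate 3 with replicates 1 and 2, and replicates 1 and 2 did not match each other within 25%. Over both long blocks 10 of 18 searches succeeded (37.2% over all rows), but only 2 of 18 when values had to match within 1.1-fold (14.2% over all rows). Which gene these values belong to was not resolved, and they are not evidence of Prl3d1, Prl3d2, Prl3a1 or Prl8a2 transcripts in this tissue.

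**Figure D1:**
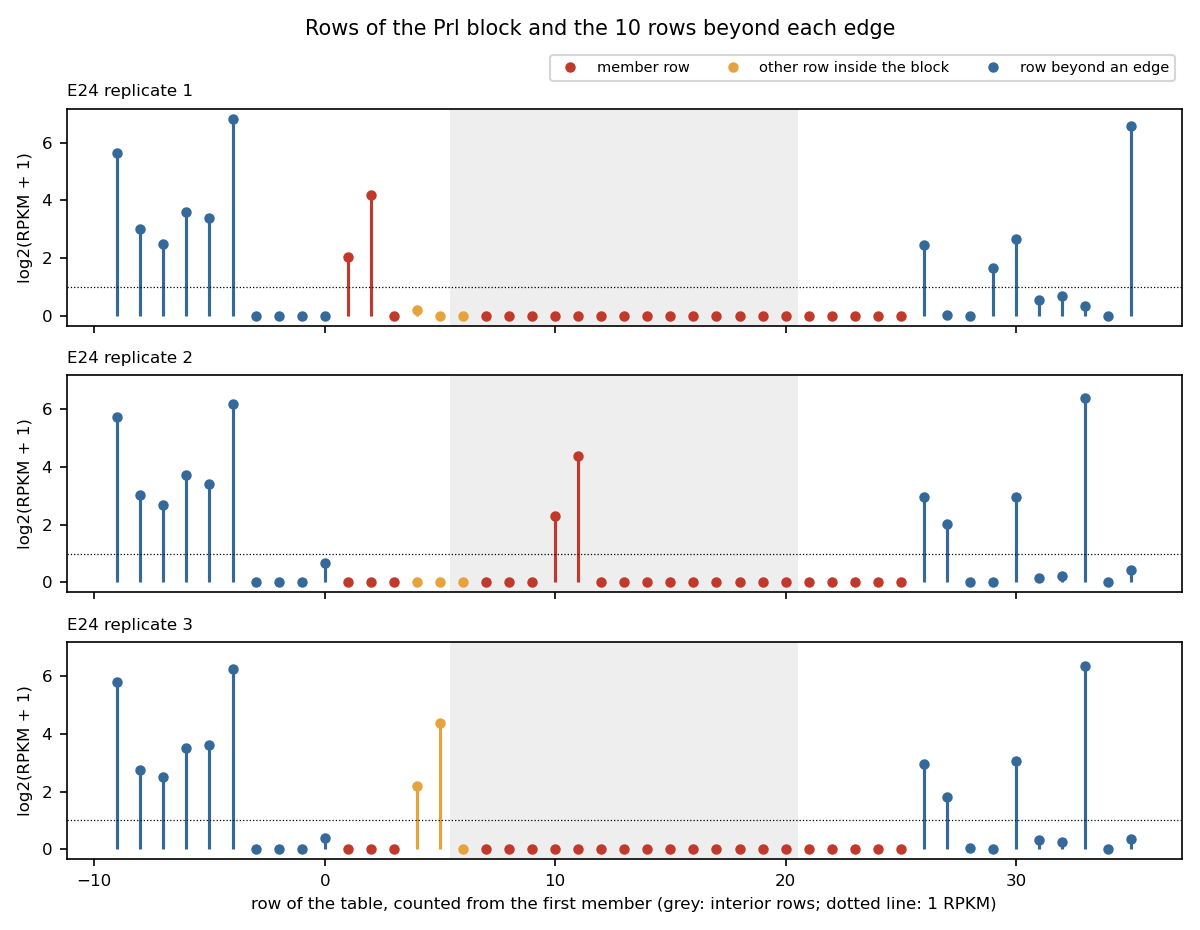
Level of each row of the Prl block and of the 10 rows beyond each edge, as log2(RPKM + 1) by position in the table, for the 3 libraries. A low and a high value stand side by side at different rows in each library, near the first edge in replicates 1 and 3 and in the interior in replicate 2, while the last 14 rows of the block are at 0 in all of them.

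The edges of the Prl block were unlike each other. Beyond the last member 4 of the 10 rows reached 1 RPKM in each library, with medians of 0.541, 0.251 and 0.262 RPKM in replicates 1, 2 and 3. The first of them, Sox4, a transcription factor gene of neural progenitors, held 4.53, 6.75 and 6.75 RPKM, and the fifth, Cdkal1, held 5.39, 6.84 and 7.38 RPKM. These 2 were above 1 RPKM in all libraries, whereas 2610307P16Rik, Mboat1, Agtr1a and 4930519D14Rik stayed below it in all, at 0.624 RPKM or less. The remaining 4 rows after the block that reached 1 RPKM did so unevenly. A330102I10Rik had 0.0145, 3.13 and 2.52 RPKM. Uqcrfs1, a subunit of respiratory complex III, had 0.276, 84.1 and 81.0 RPKM, and Dcdc2a 94.9, 0.348 and 0.281 RPKM. In mm9 Dcdc2a starts at 25147872, before the members of the block. Mir6368 had 2.14, 0 and 0 RPKM. At all 4 of these rows replicate 1 stood apart from replicates 2 and 3.

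Before the first member the low stretch began earlier than the family. The hormone gene Prl itself, which the name rule leaves out, is the row just before Prl3d1 and held 0, 0.599 and 0.319 RPKM, with a limma adjusted p of 0.0625 against 1 RPKM. The 3 rows before it, Hdgfl1, 1700092E19Rik and Gm11351, were listed at 0 throughout. Then came 6 rows at 1 RPKM or more in every library, of which Nrsn1, a neuronal membrane protein, was highest with 113.5, 71.1 and 75.9 RPKM. Tdp2, a DNA repair enzyme, held 48.6, 52.6 and 54.6 RPKM, and the others, Lrrc16a, D130043K22Rik, Gpld1 and Mrs2, lay between 4.66 and 12.3 RPKM in the 3 libraries. These 6 rows had similar values in all libraries.

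As a block, the Prl interior averaged 0.149 ± 0.257 in log2(RPKM + 1) (SD, n = 3), against 2.01 ± 0.0207 over the 20 rows beyond its edges. The difference was -1.999, -1.59 and -1.998 in replicates 1, 2 and 3, a mean of -1.86 ± 0.24. The interior of replicates 1 and 3 was 0 throughout, and that of replicate 2 held the values at Prl3a1 and Prl8a2. The flanks themselves differed by side, with 2.51 ± 0.0342 before the block and 1.51 ± 0.0116 after it. The difference was -0.99 with the block taken as its longest unbroken run of members, a setting chosen after seeing the data, and -3.61 with a pseudocount of 0.1. No p is given for block values, since the members were proposed with results of these data known.

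The smaller Prl block holds the proliferins, growth factors of trophoblast, on chromosome 13 from 12883082 to 13284107 in mm9. Its 4 member rows were less uniformly silent. Prl2c5 had 2.81, 5.48 and 6.25 RPKM, the only Prl row at 1 RPKM or more in every library, with a limma adjusted p of 0.05002, just above the threshold. It passed with a pseudocount of 0.1 (adjusted p = 0.0228 by limma), without a variance trend (0.0394), with upper-quartile scaling (0.0487) and without replicate 1 (0.0244). It did not pass without replicate 2 (limma adjusted p = 0.223), without replicate 3 (0.272), among rows with a mean of at least 0.1 RPKM (0.0777) or against a level of 5 RPKM (0.874). At the Prl2c5 row replicates 2 and 3 matched each other, and replicate 1 matched neither. In replicate 1 a value near theirs stood at Ero1lb, with 5.70 RPKM, 6 rows before. Near the value of replicate 1, Gng4, 4 rows on, held 3.18 and 3.24 RPKM in replicates 2 and 3. Gng4 also held 2.91 RPKM in replicate 1. Such matches of single values are common over all rows. Whether any of these values is that of Prl2c5 was not resolved. Prl2c2 had 0, 1.49 and 1.46 RPKM. Prl2c4 had 17.9, 0 and 0 RPKM and Prl2c3 was listed at 0 throughout. Prl2c3 and Prl2c4 lie at nearly the same place in the table's loci, and RefSeq lists Prl2c4 as a synonym of Prl2c3. How reads were divided between them or among the other proliferin copies was not tested. Dnah11, a row between the members whose mm9 locus is on chromosome 12, held 0, 4.28 and 4.68 RPKM. All 20 rows beyond the edges of this block reached 1 RPKM in at least 1 library, and 9 did so in all.

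The Psg block was low in its middle and mixed toward its last edge. From Psg26 to Psg20, 6 consecutive rows were listed at 0 in all libraries, those for Psg26, Psg27, Psg25, Psg21, Psg22 and Psg20. Psg22 is a product of trophoblast giant cells. Psg16, known for a transcript in mouse brain, was at 0 in every library, as were Ceacam5, Ceacam14 and Ceacam12. These 10 rows, of 19 members of the block, are those at 0 throughout, against 18.8% of all rows. Runs of 6 or more such rows numbered 155 of 1934 over the table.

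Similar pairs of neighbouring values stood at different rows of the Psg interior in each library, as inside the Prl block. The Ceacam11 and Ceacam13 rows held 18.5 and 70.8 RPKM in replicate 2, while Ceacam11 was at 0 and Ceacam13 at 0.0224 RPKM or less in the others. In replicate 1 values of 23.1 and 79.0 RPKM stood at Mill1, a row of an MHC class I-like gene that is no member, and at Psg18. In replicate 3 values of 18.8 and 71.4 RPKM stood at Psg18 and Psg28. The Psg18 row thus held 79.0, 0 and 18.8 RPKM and the Psg28 row 0.0515, 0.106 and 71.4 RPKM. The places lay up to 5 rows apart. In this block 6 of 12 searches for neighbouring values succeeded at other rows, against 15.9% over all rows. At the same rows 0 did, against 21.3%. Each match in the block counted once in each direction. Within 1.1-fold, 2 of 18 searches over both long blocks succeeded, against 14.2% over all rows. Replicate 2 had a further interior value, 22.0 RPKM at Strn4, which was at 0 in the others. In mm9 Strn4 starts at 17401237, before the span of the members, so it is interior in table order only. Nearer the first edge Ceacam3 had 0, 0 and 21.5 RPKM, and Psg29 had 0.844, 0.713 and 0 RPKM. Psg-ps1, a pseudogene that the name rule leaves out, had 54.5, 0 and 0.487 RPKM.

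**Figure D2:**
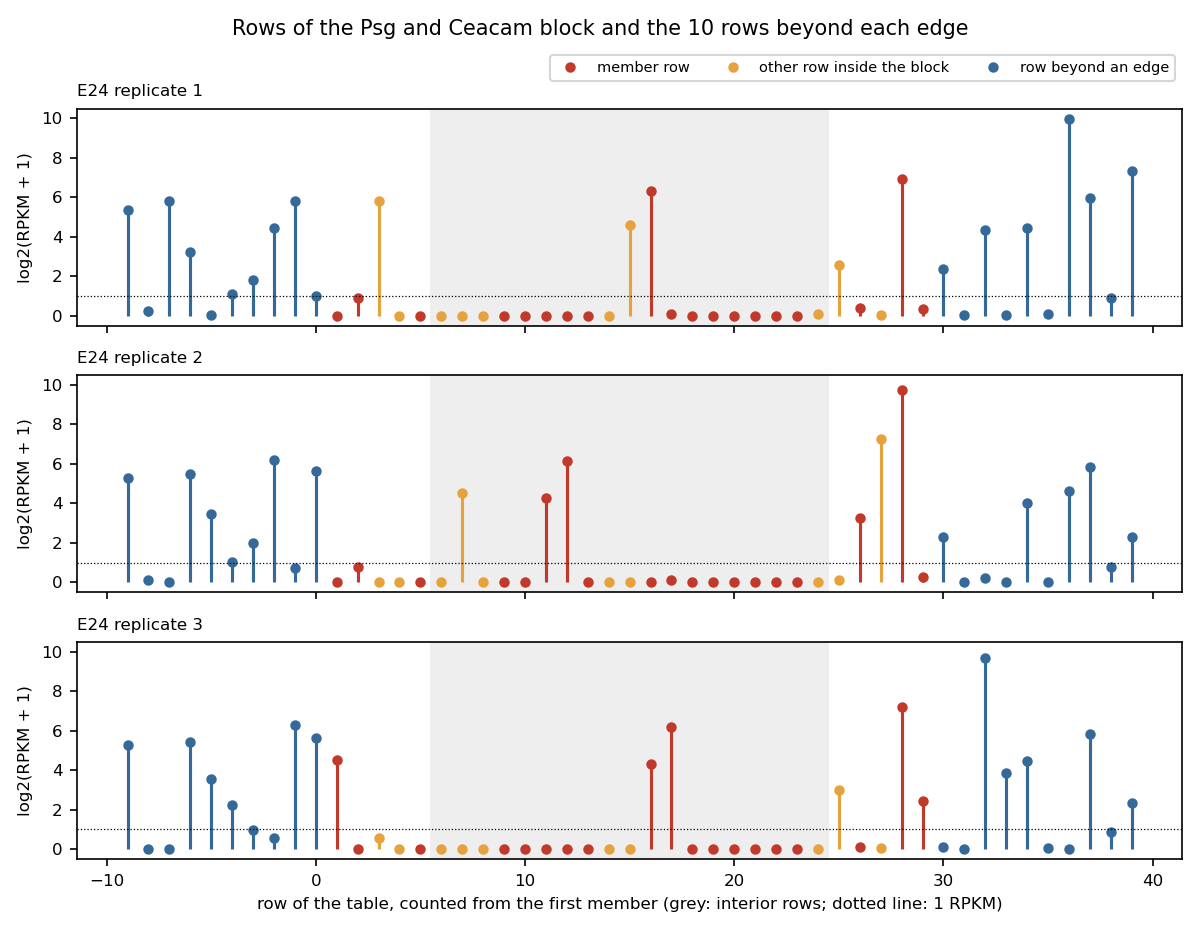
Level of each row of the Psg and Ceacam block and of the 10 rows beyond each edge, as log2(RPKM + 1) by position in the table, for the 3 libraries. The interior is mostly at 0 but for 2 neighbouring high values at different rows in each library and 1 more in replicate 2, and Psg17 near the last edge is high in all 3.

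Psg17 was the only member above 1 RPKM by the test. Its protein binds the tetraspanin CD9 in the mouse, and its row held 119.5, 859.2 and 147.8 RPKM, a mean on the log2 scale 6.96 above 1 RPKM with an SE of 0.78 and a limma adjusted p of 0.00882. All 3 libraries were high at this row, replicate 2 by far the highest. The call was lost without replicate 1 (limma adjusted p = 0.0521) and without replicate 3 (0.0519), and over all settings the adjusted p lay between 0.00646 and 0.0521. Values near that of replicate 2 stood close by in the others, with 829.6 RPKM at Pnmal2 in replicate 3, 4 rows on, and 1009 RPKM at Rsph6a in replicate 1, 8 rows on. Close to the value of replicate 3, replicate 2 held 150.3 RPKM at Pglyrp1, the row before. Replicates 1 and 3 matched at the Psg17 row itself. Psg17 is the last but one row of the block, and whether any of the 3 values is its own was not resolved.

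The other members at the last edge were above 1 RPKM in 1 library each. Psg19 had 0.307, 8.75 and 0.0840 RPKM, and Psg23, the last row of the block, had 0.284, 0.207 and 4.39 RPKM. In mm9 the Psg23 locus starts at 19191691, before that of Psg20 at 19259714, so table order and genome order part here. Sycp1-ps1, a row of the last edge that is no member, was high in 2 libraries, with 4.89, 0.0997 and 7.04 RPKM. Beyond the edge, Foxa3, a liver transcription factor, held 21.0, 15.1 and 21.2 RPKM, and Dmwd held 62.1, 56.7 and 56.0 RPKM. The libraries were close at these 2 rows. Snrpd2, a splicing factor subunit, held 161.0, 3.98 and 3.98 RPKM. Nanos2 had 4.14, 4.01 and 0.0704 RPKM, and Mypop had 0.0210, 0 and 13.3 RPKM. Pnmal2, whose mm9 locus starts at 17530030, before the members, had 18.9, 0.169 and 829.6 RPKM. Rsph6a had 1009, 23.9 and 0.0204 RPKM. At each of these 5 rows at least 1 library differed widely from the others.

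Before the first edge of the Psg block the level was high again. Sae1, a SUMO-activating enzyme subunit, held 40.3, 38.5 and 38.1 RPKM, and Dact3 held 8.25, 43.8 and 41.8 RPKM. Ppp5c, a protein phosphatase and the row just before Ceacam3, held 1.02, 49.6 and 47.8 RPKM. At both, replicate 1 was lower than the others. Prkd2 held 1.18, 1.07 and 3.73 RPKM. The rows Zc3h4, Dhx34, Pnmal1, Ccdc8 and Ptgir reached 1 RPKM in 1 or 2 libraries. Of the 20 rows beyond the edges of this block, 7 reached 1 RPKM in each library and 0 were listed at 0 in all. The interior averaged 0.644 ± 0.132 in log2(RPKM + 1) (SD, n = 3) and the flanks 2.86 ± 0.355, and the difference was -2.63, -1.71 and -2.31 in replicates 1, 2 and 3, a mean of -2.22 ± 0.47. It was -1.20 with rows in the order of their mm9 starts and -4.05 with a pseudocount of 0.1.

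**Figure D3:**
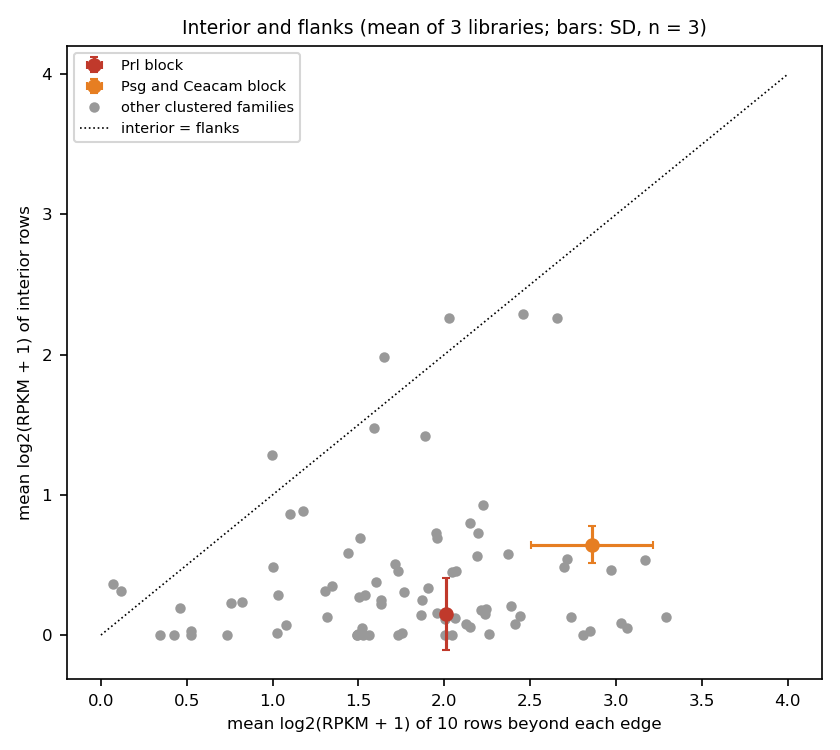
Mean log2(RPKM + 1) of the interior rows against that of the 10 rows beyond each edge, for the 2 blocks of members with SD over 3 libraries and for 80 other runs of rows of a shared name. Both blocks lie below the line of equal levels, as do 75 of the 80 others.

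Other runs of rows of a shared name showed the same kind of step. Many are separate runs of odorant (Olfr) or vomeronasal (Vmn) receptor rows, and some, such as Mir, share only a name prefix. Of 80 runs of at least 10 rows of a shared leading name, 75 had an interior below their flanks, with a median difference of -1.47 and a range from -3.16 to 0.34 in log2(RPKM + 1). The Psg block at -2.22 had 11 of them below it and the Prl block at -1.86 had 23. In level, 33 of the 80 interiors lay below that of the Prl block and 65 below that of the Psg block, against a median of 0.233. The Rhox block on chromosome X, reproductive homeobox genes many of which are also placental, had an interior at 0 and a difference of -2.81 ± 0.02 (SD, n = 3). These values place the blocks among the others and do not set them apart.

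Of the Ceacam rows outside the Psg block, only Ceacam2 was at 1 RPKM or more in more than 1 library. Ceacam15 had 0, 0 and 9.93 RPKM and Ceacam9, a placental member, had 0, 5.13 and 0.0361 RPKM, in a block of 3 rows on chromosome 7 from 17256679 to 17311459 in mm9. Ceacam19 had 0.0254, 2.62 and 0.188 RPKM, and Ceacam20, an epithelial member, was listed at 0 throughout. Ceacam10 had 21.8, 0 and 0 RPKM, with 20.6 RPKM at Dmrtc2 in replicate 2, 3 rows on, and 20.4 RPKM at Tex101 in replicate 3, 5 rows before. Each of these rows but Ceacam20 was high in 1 library and at 0.188 RPKM or less in the others. Ceacam15, Ceacam9 and Ceacam19 also had a matching value within 10 rows in both other libraries. Such matches are common, since for single values of 1 RPKM or more 89.7% of member searches and 90.5% of all searches succeeded, and 62.6% of all did so 26 to 46 rows away. Between Ceacam19 and Ceacam20, Igsf23 held 4.60, 39.4 and 0.0333 RPKM and Bcam held 0.799, 0.399 and 2.52 RPKM.

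Ceacam1 and Ceacam2, neighbours on chromosome 7 from 26246720 to 26325023 in mm9, had the highest values after Psg17. Ceacam1, an adhesion molecule of epithelium, endothelium and leukocytes, had 0, 0.0156 and 153.0 RPKM. Ceacam2 had 163.9, 9.04 and 8.00 RPKM, for which limma gave an adjusted p of 0.0986. Without replicate 1 it was called (limma adjusted p = 0.0109), and over all settings the adjusted p reached 0.283. In replicate 2 a value of 163.7 RPKM stood at Pld3, 5 rows before Ceacam1. A level of 153.0 to 163.9 RPKM was therefore found in each library, at 3 different rows. Of 10 searches for a member value of 100 RPKM or more in another library, 7 succeeded at another row within 10 and 2 at the same row, 90.0% in all. Of such searches over all rows, 76.8% succeeded, and 15.9% did so 26 to 46 rows away. The rows for the leukocyte and liver genes Ptprc, Cd14 and Alb, from sites where Ceacam1 is known, summed to 5.75, 1.19 and 1.08 RPKM. Their part in the Ceacam1 value was not tested.

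**Figure D4:**
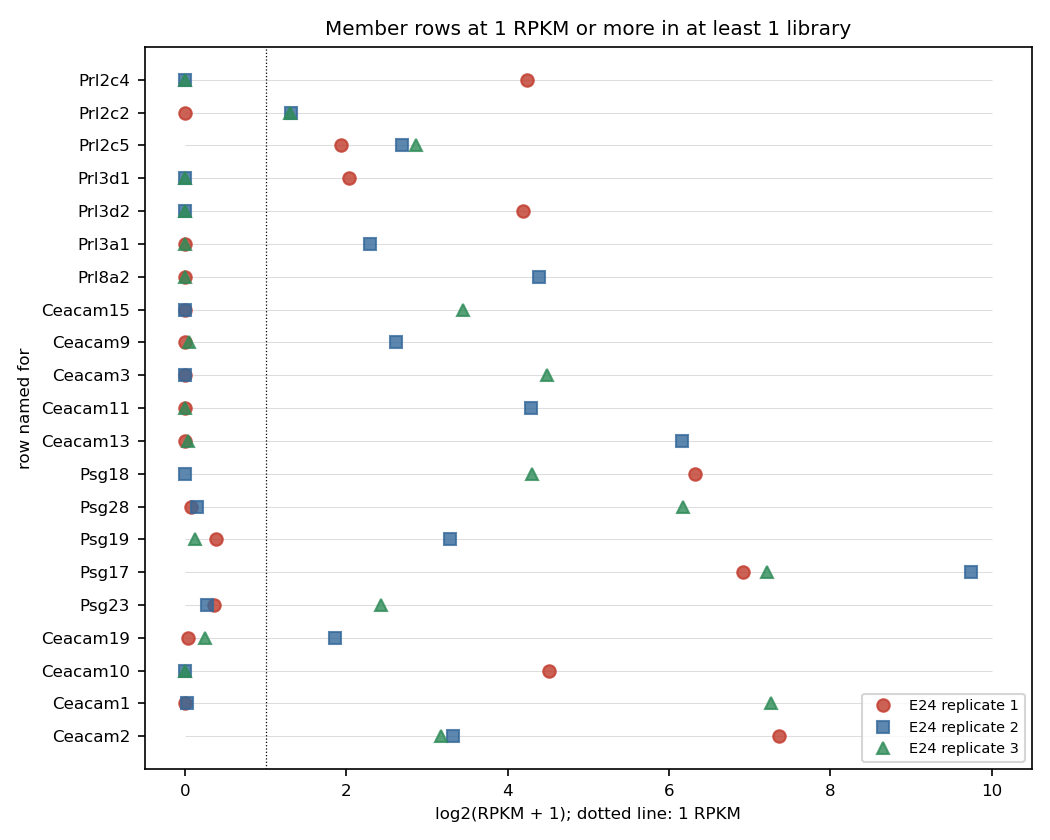
Level in each library, as log2(RPKM + 1), of the 21 member rows at 1 RPKM or more in at least 1 library, in table order. In 16 of them a single library is above 1 RPKM, and Prl2c5, Psg17 and Ceacam2 are above it in all 3.

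Promoters of the members were poor in CpG dinucleotides, the sites of DNA methylation in mammals. RefSeq promoters of the GRCm38.p6 build, 250 bases before to 50 after each start, were matched by symbol for 44 of the 54 members. They held 0 to 5 CpG with a median of 2, against 7 over 27025 promoters, of which 43.6% held 5 or fewer, a bound chosen after the member values were seen. Genes of the rows beyond the edges had medians of 12 for 11 matched genes around the Prl block and 20.5 for 18 around the Psg block. The letters TATAAA, read on both strands, were in 18.2% of the member promoters and in 14.2% of all. These are properties of the sequence, given as a description, and say nothing on which promoters are active here.

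The 100 bases upstream of the start are shown for both ends of the silent Psg run, for the last member of the silent Prl run, for the Prl3d rows with a value in replicate 1, for Psg17, and for Sox4 beyond the edge, with each CpG in capitals. They are RefSeq sequences of GRCm38.p6, whose positions are not those of mm9. Prl3d1 is at chr13:27094089-27094188 (+), Prl3d2 at chr13:27121595-27121694 (+), Prl5a1 at chr13:28142384-28142483 (+), Psg26 at chr7:18484150-18484249 (-), Psg20 at chr7:18685993-18686092 (-), Psg17 at chr7:18821592-18821691 (-) and Sox4 at chr13:28953700-28953799 (-).
Prl3d1: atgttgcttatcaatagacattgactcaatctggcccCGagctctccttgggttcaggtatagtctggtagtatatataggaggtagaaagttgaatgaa
Prl3d2: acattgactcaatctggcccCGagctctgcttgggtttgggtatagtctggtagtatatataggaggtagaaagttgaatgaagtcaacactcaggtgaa
Prl5a1: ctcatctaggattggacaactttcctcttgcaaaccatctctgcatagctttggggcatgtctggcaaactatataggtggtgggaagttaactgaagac
Psg26: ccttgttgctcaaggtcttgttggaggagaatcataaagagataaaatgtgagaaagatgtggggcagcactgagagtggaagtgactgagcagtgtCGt
Psg20: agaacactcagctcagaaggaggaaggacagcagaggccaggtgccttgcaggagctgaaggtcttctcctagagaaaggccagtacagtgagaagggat
Psg17: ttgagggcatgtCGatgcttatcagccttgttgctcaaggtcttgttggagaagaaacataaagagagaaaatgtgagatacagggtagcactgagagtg
Sox4: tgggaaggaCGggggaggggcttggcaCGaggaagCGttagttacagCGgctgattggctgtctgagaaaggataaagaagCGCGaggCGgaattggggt
Sox4 shows 7 CpG in this window and the others 0 or 1. Aligned without gaps at their best shift, the Prl3d1 and Prl3d2 promoters were identical at 97.9% of 283 bases and Prl3d2 and Prl3d3 at 99.7% of 296. Psg26 and Psg17 matched at 55.3% of 275 bases, and Prl3d1 and Prl5a1 at 35.4% of 297. Whether reads of the Prl3d copies were shared between their rows was not tested.

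**Figure D5:**
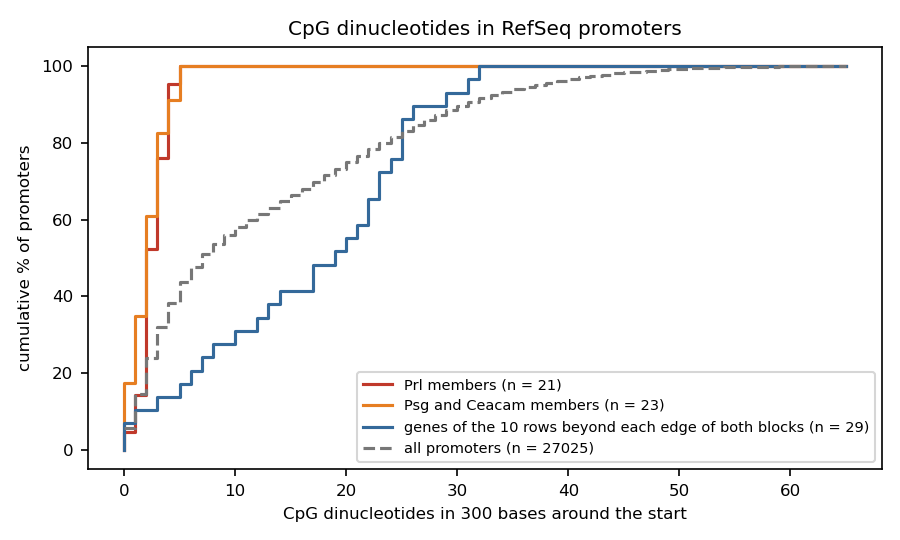
Cumulative share of RefSeq promoters by their number of CpG dinucleotides, for 21 Prl and 23 Psg and Ceacam members, 29 genes of the rows beyond the edges of both blocks, and all 27025 promoters. All members lie at 5 or fewer, against 43.6% of all promoters.

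Rows of the prolactin pathway and of another placental family were read for comparison, from lists chosen with earlier results known. Of 11 rows for prolactin, growth hormone, their receptors and signalling, 2 lay above 1 RPKM by limma (18.2%, against 19.7% of all rows), 2 below (18.2%, against 30.4%) and 7 neither. The list medians were 2.78, 1.83 and 2.87 RPKM, against 1.02, 0.911 and 0.930 RPKM for all rows. Stat5b, a transcription factor activated by the receptor, had 22.1, 15.5 and 22.7 RPKM with a limma adjusted p of 0.00113, and Cish, a feedback inhibitor, had 5.33, 7.15 and 6.58 RPKM with 0.00832. The receptor row Prlr held 2.78, 1.83 and 2.03 RPKM (limma adjusted p = 0.294), close between the libraries and near the level tested. Jak2 held 14.3, 3.59 and 0.0210 RPKM. Socs3 lay below, at 0.507, 0.433 and 0.518 RPKM, and Gh was listed at 0. Of the 5 rows for pituitary genes, 0 lay above 1 RPKM by limma, with 0 at an unadjusted p under 0.05, and Gh lay below. Pou1f1, the transcription factor of prolactin cells, held 0.222, 29.4 and 0.112 RPKM.

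The placental cathepsins, proteases of trophoblast, are encoded in another cluster of chromosome 13. Of 9 rows, 6 were listed at 0 in all libraries (66.7%, against 18.8% of all rows) and lay below 1 RPKM by limma (30.4% of all rows). By limma 0 lay above (19.7% of all rows), and 0 did so at an unadjusted p under 0.05. Ctsj held 35.8, 0 and 0 RPKM, Cts6 held 0, 3.42 and 4.34 RPKM and Cts3 held 0, 1.01 and 0.0564 RPKM. No row of this list was at 1 RPKM or more in all 3 libraries.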

How the data were processed

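RNA of the dentate gyrus was sequenced from 3 animals, 1 library each. The deposited values are RPKM, made by the authors with TopHat2 and Cufflinks on mm9, per the submitters' processing notes. Versions, annotation and filters were not given in the sources used here. Another 9 value columns correspond to no listed sample and stayed out. Read depth is unknown, so no counting interval is given. Members, lists and settings were chosen with earlier results of these data known.

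Rows were kept in table order, where 29.4% of neighbouring rows are out of genomic order. Levels were tested with limma 3.58.1 in R 4.3.3 on log2(RPKM + 1) against 1 RPKM (intercept only, variance trend, two-sided, Benjamini-Hochberg over 24458 rows), after a check on simulated data. RPKM compares levels between genes per length. Blocks, flanks and searches for matching values were computed in Python 3.11.15. Alternatives were another pseudocount, level, filter, variance prior, scaling, edge, flank and row order, and leaving out each library. The named rows are members at 1 RPKM or more in any library, members of known role and, for the 2 long blocks, rows beyond the edges at 1 RPKM or more. Rows beyond the edges of the other 6 blocks, which the same rule covers, are given as counts or only where a value recurs there. Other rows inside the blocks were named after their values were seen.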

Additional observations from a re-analysis of the deposited data

How the results depend on the processing

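Of 59 alternative values, 16 moved by more than 1.5 times (counts) or 1 SD (levels) and 43 did not. Only the differences between a block and its flanks could change sign, and none of these did. Prl rows above 1 RPKM numbered 1 rather than 0 with a pseudocount of 0.1, without a variance trend and with upper-quartile scaling, and between 0 and 1 when each library was left out in turn. Psg and Ceacam rows above it numbered 0 to 1 with a library left out. Of all rows, 22.7% lay above with a pseudocount of 0.1, 20.8% without a variance trend and 19.7% with upper-quartile scaling. With a library left out, 14.8% to 21.7% of all rows did. Rows below 1 RPKM numbered 0 in both clusters when only rows with a mean of at least 0.1 RPKM were tested. That filter removes rows listed at 0, and 4.91% of all rows it kept lay below. When leaving out each library, 19 to 22 Prl rows and 14 to 18 Psg and Ceacam rows lay below. Of all rows, 32.2% to 35% then did, against 30.4% with all libraries. The Prl block differed from its flanks by -3.61 with a pseudocount of 0.1, -1.29 and -1.61 with 5 and 20 rows beyond each edge, -1.34 in the order of mm9 starts, -0.99 as an unbroken run of members, and -1.998 to -1.79 when leaving out each library. The Psg block differed by -4.05 with a pseudocount of 0.1, -1.67 with 10 rows left out at each edge, -1.20 in the order of mm9 starts, and -2.47 to -2.01 when leaving out each library. Its unbroken run is too short for an interior. Neighbouring values found again numbered 2 of 18 within 1.1-fold, against 10 of 18, and 14.2% and 37.2% over all rows. That setting, the other searches and the unbroken run were chosen after seeing the data. The causes were not tested. No paired analysis was possible because there is only 1 group. What depth limits could not be stated, since depth is unknown.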
